A study of Mus musculus with 2 samples.

Results

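The Kruppel-like factors (KLFs) are transcription factors that bind GC-rich and CACCC-type sites in DNA through an array of zinc fingers at the end of the protein. The genes of 8 of them, Klf2, Klf3, Klf4, Klf5, Klf6, Klf7, Klf9 and Klf10, were examined for RUNX2 binding in MC3T3-E1 cells, out of 21887 protein-coding genes on chromosomes 1 to 19, X and Y. They are a subset of the family, chosen with earlier results of these data known, though not by a limit on the number of peaks. A peak was assigned to a gene when at least 1 bp of it lay inside the RefSeq span of the gene or within 50 kb of either end. A peak of one replicate that overlapped a peak of the other by at least 1 bp was called shared, and overlapping peaks were merged into a shared region. In all, 62 of the 54140 peaks in both lists lay in the 8 windows.

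The data came from CUT&Tag, in which an antibody against RUNX2 directs the transposase Tn5 to bound chromatin, where it cuts and tags the DNA. MC3T3-E1 is a mouse line of osteoblast precursors, and RUNX2 is the factor that drives the osteoblast lineage. The cells were untreated, and there was 1 group of 2 replicate libraries, with no control library and no second condition among the samples used here. Peaks that arise without RUNX2 could therefore not be told from RUNX2 binding. The lists gave 26853 peaks in replicate 1 and 27287 in replicate 2, each as a position and a width without a height, so read depth is unknown. Nothing in the labels tells separate cultures from repeat libraries, so the spread between replicates may be technical.

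KLF proteins fall into classes by the cofactors they recruit. Klf2, Klf4, Klf5, Klf6 and Klf7 belong to the class best known for activation through histone acetyltransferases. Klf3 recruits the corepressor CtBP, and Klf9 and Klf10 recruit the corepressor Sin3a. Several of these genes respond early to outside signals, such as fluid flow for Klf2, glucocorticoid and thyroid hormone for Klf9 and TGF-beta for Klf10, which is also known as TGF-beta inducible early gene and whose loss in mice weakens bone.

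A shared region lay at the start of 7 of the 8 genes. These were Klf2, Klf3, Klf4, Klf6, Klf7, Klf9 and Klf10, each with 1 shared region within 1 kb of the start, and Klf5 was the exception. Of all 21887 protein-coding genes, 33.9% had such a region, and of the 9 other KLF genes 3 had one. Since the 8 genes were picked from the family as described, their share does not stand for all KLF genes. The start was taken from the RefSeq promoter table where it had an entry, and otherwise either end of the gene counted, as it did for Klf5 and Klf10. Among genes with a listed start the count was 6 of 6, beside 35.1% of 17492 protein-coding genes. All 8 genes stood in gene-poor surroundings, with at most 1 other protein-coding gene in the window, and of the 6300 genes with such a window 24.9% had a shared region at the start. This last background was chosen after the data were seen. The comparison is descriptive, since the design has no contrast and no test was made.

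The sequences before 5 of these starts are shown because the peaks of both replicates covered at least 125 of the 250 bases there. Each is the 250 bases before the start, 5′ to 3′ on the strand of the gene, from the RefSeq promoter table (GRCm38.p6), with the bases that lay under a peak in both replicates in capitals and the others in lower case. The positions were chr8:72318812-72319061 (plus strand) for Klf2, chr4:55532476-55532725 (minus strand) for Klf4, chr13:5861239-5861488 (plus strand) for Klf6, chr5:64803271-64803520 (plus strand) for Klf3 and chr19:23140976-23141225 (plus strand) for Klf9.
Klf2: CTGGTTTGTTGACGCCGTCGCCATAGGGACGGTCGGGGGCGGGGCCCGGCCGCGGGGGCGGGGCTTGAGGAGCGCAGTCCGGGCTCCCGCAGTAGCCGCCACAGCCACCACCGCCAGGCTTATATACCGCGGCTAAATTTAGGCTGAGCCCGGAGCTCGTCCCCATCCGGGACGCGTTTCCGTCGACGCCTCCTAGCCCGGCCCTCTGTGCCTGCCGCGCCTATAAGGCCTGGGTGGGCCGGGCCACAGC
Klf4: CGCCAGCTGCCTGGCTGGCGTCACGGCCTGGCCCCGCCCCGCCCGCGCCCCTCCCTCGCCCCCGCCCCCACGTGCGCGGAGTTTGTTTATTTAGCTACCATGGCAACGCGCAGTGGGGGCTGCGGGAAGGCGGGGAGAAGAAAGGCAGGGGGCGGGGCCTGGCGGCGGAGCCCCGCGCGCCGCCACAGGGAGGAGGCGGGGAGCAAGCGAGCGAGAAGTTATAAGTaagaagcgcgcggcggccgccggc
Klf6: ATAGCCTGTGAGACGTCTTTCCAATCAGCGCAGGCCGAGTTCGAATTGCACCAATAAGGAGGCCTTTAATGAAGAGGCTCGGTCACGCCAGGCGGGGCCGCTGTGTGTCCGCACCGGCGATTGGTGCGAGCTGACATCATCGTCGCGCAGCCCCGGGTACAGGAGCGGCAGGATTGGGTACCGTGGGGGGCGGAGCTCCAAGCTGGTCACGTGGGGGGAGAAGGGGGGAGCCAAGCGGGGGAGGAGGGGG
Klf3: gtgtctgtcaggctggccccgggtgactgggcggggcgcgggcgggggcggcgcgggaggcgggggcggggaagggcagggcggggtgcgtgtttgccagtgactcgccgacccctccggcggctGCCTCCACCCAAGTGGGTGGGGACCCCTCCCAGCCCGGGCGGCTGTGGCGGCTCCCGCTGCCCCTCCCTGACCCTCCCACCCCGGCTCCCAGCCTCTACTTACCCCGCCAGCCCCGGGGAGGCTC
Klf9: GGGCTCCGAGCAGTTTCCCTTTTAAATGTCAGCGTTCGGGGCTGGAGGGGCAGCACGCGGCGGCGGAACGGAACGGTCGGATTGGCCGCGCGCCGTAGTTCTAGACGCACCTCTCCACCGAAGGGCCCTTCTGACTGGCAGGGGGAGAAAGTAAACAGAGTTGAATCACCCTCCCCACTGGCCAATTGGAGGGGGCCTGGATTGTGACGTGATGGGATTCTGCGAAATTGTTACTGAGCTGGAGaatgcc
Both replicates covered all 250 bases at Klf2 and at Klf6, 244 at Klf9 and 226 at Klf4. At Klf3 they covered the 125 bases next to the start, and at Klf7, which is not shown, 56 bases at the far end.

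All 6 windows with an entry had a GC content above the median of all listed starts. The share of G and C was 78.4% before Klf3, 74.0% before Klf4, 71.2% before Klf2, 64.8% before Klf6, 59.6% before Klf9 and 59.2% before Klf7. The median was 60.8% over the 7203 listed starts of protein-coding genes with a shared region within 1 kb and 55.6% over all 21263 listed starts. The letters TGTGGT and TGCGGT, the cores of the RUNX motif, were absent on both strands of all 6 windows. On their own they were found in 12.4% and 5.87% of all 21263 windows of the same length, and in 10% and 8.52% of those with a shared region. The letters GGGCGG, the GC box to which SP and KLF proteins bind, were in 5 of the 6 windows at 14 places, beside 42.6% of all windows and 63.5% of those with a shared region. Klf9 was the window without them. The letters CACCC, a KLF-type site, were in 4 of the 6 windows at 10 places. They were in 54.2% of all windows and 56.2% of those with a shared region. The GGGCGG and CACCC places did not all lie under peaks of both replicates. At Klf3 most GGGCGG lay outside, and at Klf7 no CACCC lay inside. The AP-1 letters TGANTCA were found once, before Klf9, from 89 to 83 bases upstream of the start and inside the capitals, and they overlapped a CACCC that began 84 bases upstream. TGANTCA occurred in 6.13% of all windows and in 3.79% of those with a shared region. The CArG box, the site of serum response factor, occurred in none of the 6 and in 1.39% of all. These are matches of letters in a short window and not measured binding sites. The parts of the peaks outside these windows were not searched, so the absence of RUNX letters holds for the windows only.

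Among the activator class, Klf2 had a single shared region, and it covered the start. Klf2 encodes a factor best known from endothelial cells and resting T cells (chromosome 8, 72319062 to 72321654, plus strand, GRCm38). The peak had a width of 493 bp in replicate 1 and of 436 bp in replicate 2, and it ran from 297 bp upstream to 195 bp downstream of the start in replicate 1 and from 257 bp upstream to 178 bp downstream in replicate 2. The replicates differed elsewhere in this window. Replicate 2 had a peak of 908 bp from 72303048 to 72303955, 15.1 kb upstream and 607 bp from an end of the pseudogene Gm10282. Replicate 1 had none there, and its nearest peak was 7.02 kb away. Of the 8960 peaks found in replicate 2 alone, 0.223% were as wide or wider.

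Klf4, which encodes a factor of skin and gut epithelium that is also used for reprogramming to pluripotency, had the widest peaks of any start in the set (chromosome 4, 55527137 to 55532475, minus strand). They measured 880 bp in replicate 1 and 873 bp in replicate 2, wider than 93.1% and 92.9% of the peaks in their lists. They lay almost wholly upstream. The replicate 2 peak reached 16 bp past the start, and the replicate 1 peak ended 25 bp before it. The low end of the lncRNA gene Gm12506, at 55532710, lay under both peaks. A second shared region, from 55488646 to 55489573, lay 37.6 kb below the low end of Klf4, which is downstream. It was a single peak of 863 bp in replicate 1 and a pair of 286 and 327 bp in replicate 2. Replicate 2 alone had a peak of 398 bp, 10.3 kb upstream of the gene.

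Klf5 had no shared region. Klf5 encodes a factor of proliferating epithelium and vascular smooth muscle (chromosome 14, 99298691 to 99313412), and 30.1% of protein-coding genes likewise had no shared region in their window. Replicate 1 had 1 peak, from 99298526 to 99298989, which crossed the low end of the gene and was 464 bp wide, wider than 59.7% of the list. Replicate 2 had no peak in the window, and its nearest one was 86.2 kb from that of replicate 1. A peak list shows what passed the authors' limit, and signal below it cannot be seen.

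Klf6 was the member of this class with the most shared regions, at 4. It encodes a widely expressed factor induced by injury and growth signals (chromosome 13, 5861489 to 5870393, plus strand). The peak at the start was placed alike in both replicates, with a width of 371 bp in replicate 1 and 374 bp in replicate 2. It extended 322 and 332 bp upstream and 48 and 41 bp downstream. Upstream of it lay a region from 5845230 to 5845876, 15.6 kb from the gene, with peaks of 637 and 600 bp, and another from 5837152 to 5837928, 23.6 kb away, with peaks of 481 bp in replicate 1 and 777 bp in replicate 2. Next to the nearer of these, each replicate had a further narrow peak, of 216 bp in replicate 1 and 265 bp in replicate 2, which missed each other by 18 bp and so did not count as shared. The fourth region lay 22.2 kb downstream, with peaks of 187 and 456 bp. Replicate 1 alone had a peak of 480 bp 1.01 kb beyond the high end of the gene.

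Klf7, which encodes a factor best known from neurons, had 1 shared region although it is the longest gene of the set at 92.9 kb (chromosome 1, 64029448 to 64122345, minus strand). The peaks had widths of 579 bp in replicate 1 and of 743 bp in replicate 2. Their nearer edges lay 195 and 178 bp upstream of the listed start, and the annotated span of the gene reaches 956 bp beyond that start. The low end of the lncRNA gene Gm35880, at 64121567, coincided with the first base of the replicate 2 peak. Another 3 peaks of replicate 1 and 1 of replicate 2 in the window, 264 to 387 bp wide, had no partner, and 2 of those of replicate 1 lay inside the gene.

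**Figure D1:**
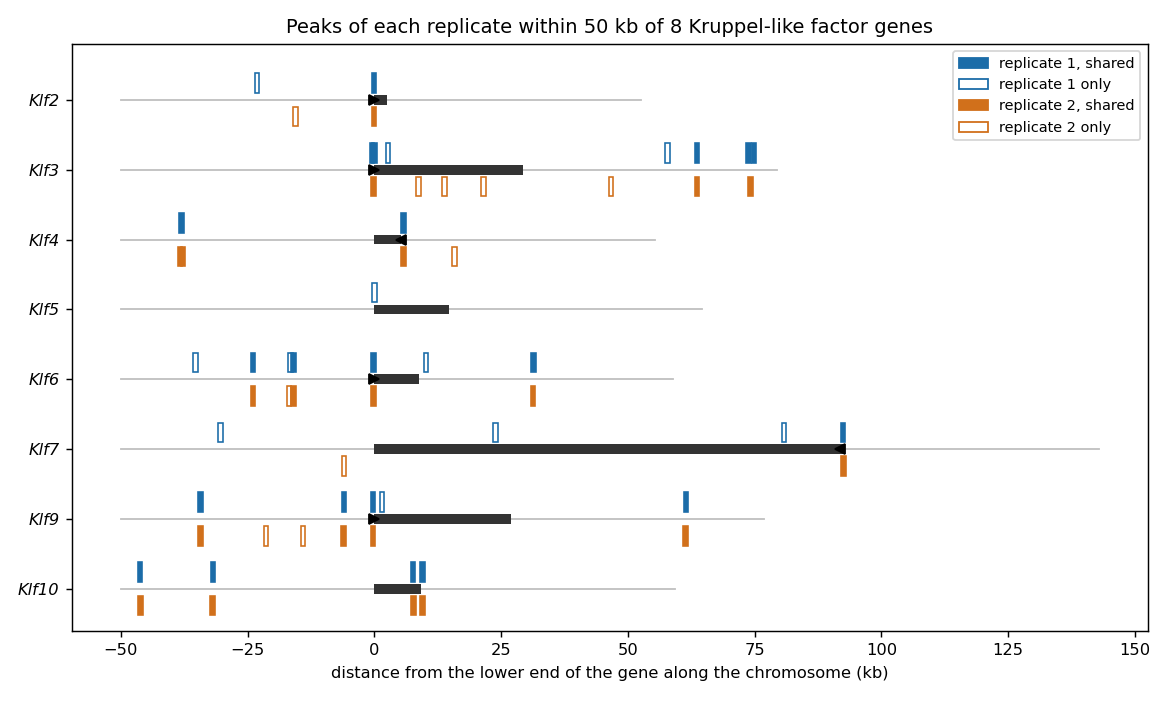
Peaks of replicate 1 (above each line) and replicate 2 (below it) around the 8 genes, by distance in kb from the lower end of the gene along the chromosome, with shared peaks filled and peaks of one list open. Thick black bars are gene spans, arrowheads mark listed starts and their direction, thin grey lines show the window of 50 kb on each side, and peak marks have a fixed width that is not to scale; Klf10 has 4 filled positions and no open one, and Klf5 has 1 open mark.

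The CtBP-recruiting member, Klf3, had 14 peaks in its window, 7 in each replicate, and 3 shared regions. Klf3 encodes a repressor known from blood and fat cells (chromosome 5, 64803521 to 64832901, plus strand). At the start, replicate 2 had 1 peak of 500 bp, from 428 bp upstream to 71 bp downstream. Replicate 1 had a pair of narrow peaks of 173 and 252 bp in the same place, and the bases printed in lower case above all lie in the gap between them. The start also lies inside the annotated protein-coding gene Gm38457. Inside Klf3, replicate 2 had 3 peaks with no partner, of 880, 375 and 329 bp, and replicate 1 had 1 of 353 bp. The peak of 880 bp, from 64811770 to 64812649, was 5.34 kb from the nearest replicate 1 peak, and 0.279% of the peaks found in replicate 2 alone were as wide or wider. Downstream, 34.0 kb beyond the gene, lay a region with peaks of 527 and 559 bp. At 44.1 kb lay the widest region of the whole set, from 64876963 to 64878681, with a pair of peaks of 822 and 605 bp in replicate 1 and 1 peak of 1441 bp in replicate 2, wider than 99.6% of its list.

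The Sin3a-recruiting members, Klf9 and Klf10, had 4 shared regions each, as many as Klf6. Klf9 (chromosome 19, 23141226 to 23168129, plus strand) had peaks of 551 bp in replicate 1 and 565 bp in replicate 2 that ended 5 and 7 bp before the start. A wider region lay 5.54 kb upstream, from 23134685 to 23135688, with peaks of 836 and 1004 bp, wider than 91.4% and 96.3% of their lists. Its midpoint was 688 bp from an end of the lncRNA gene 2410080I02Rik. Farther upstream, at 34.1 kb, lay a region of 371 and 338 bp. The region 34.1 kb downstream, with peaks of 605 and 886 bp, was nearest to Smc5, which encodes a subunit of a chromosome maintenance complex, at 3793 bp. Upstream of Klf9, replicate 2 alone had peaks of 257 and 322 bp, and inside the gene replicate 1 alone had a peak of 326 bp.

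Klf10 was the gene whose peaks were shared without exception, 4 of 4 in each replicate (chromosome 15, 38291464 to 38300711). Its high end was crossed by peaks of 444 bp in replicate 1 and 443 bp in replicate 2, whose edges differed by 7 and 6 bp. Inside the gene, 1.42 kb from that end, lay a narrow region of 187 and 279 bp, and its midpoint was 405 bp from an end of the lncRNA gene Gm35248. Below the low end lay regions of 751 and 387 bp at 31.5 kb and of 698 and 642 bp at 45.8 kb. The last was nearer to Odf1, a gene of the sperm tail, than to Klf10, at 18534 bp. The strand of Klf10 is not in the tables used here.

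**Figure D2:**
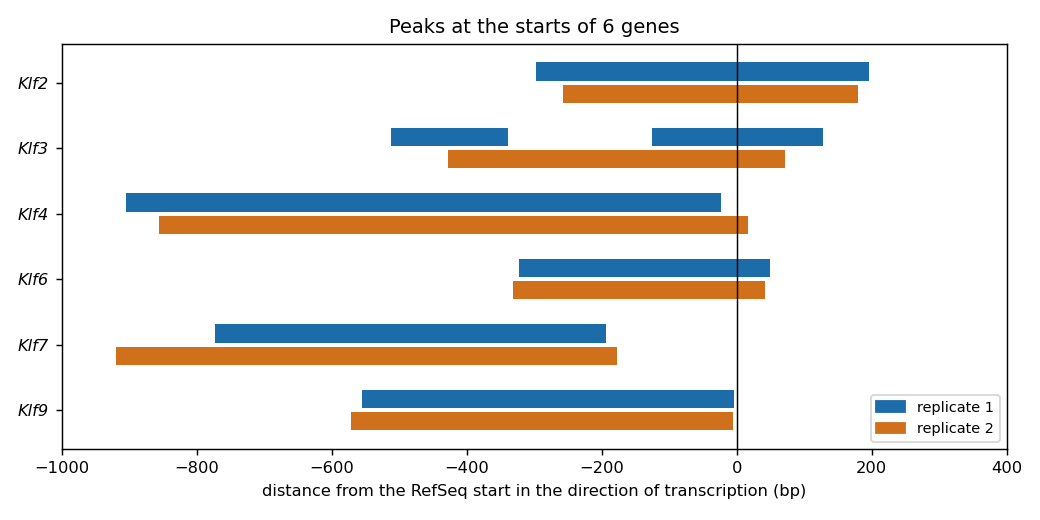
Extent of the peaks at the starts of the 6 genes with a listed start, in bp from the start in the direction of transcription (negative is upstream), for replicate 1 (upper bar of each pair) and replicate 2 (lower bar). The peaks of Klf4, Klf7 and Klf9 lie almost wholly upstream of the line at 0, and those of Klf2, Klf6 and Klf3 cross it, except for the farther of the pair at Klf3 in replicate 1.

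Measured from the 6 listed starts, the peaks lay mainly upstream. Their midpoints were upstream for 6 of 7 peaks in replicate 1 and 6 of 6 in replicate 2, and the remaining one, at Klf3, was at 0.5 bp. The median midpoint was at -280.0 bp in replicate 1 and -233.8 bp in replicate 2, where negative is upstream. Over all peaks with a midpoint within 1 kb of a listed start of a protein-coding gene, 6514 in each replicate, the median was -24.0 bp in replicate 1 and -23.0 bp in replicate 2, and 54.7% and 54.3% were upstream. The interquartile range of those midpoints ran from -161.0 to 109.9 bp in replicate 1. The Klf4 midpoints, at -464.5 bp in replicate 1 and -420.0 bp in replicate 2, and the Klf7 midpoints, at -484.0 and -549.0 bp, lay outside that range. The Klf7 direction depends on the start used, since the region lies inside the annotated span, with its midpoint 407 bp from the high end. The Klf9 midpoints, at -280.0 and -289.0 bp, also lay outside the range. So did the Klf3 midpoints at -426.0 bp in replicate 1 and -178.5 bp in replicate 2. The Klf2 midpoints, at -51.0 and -39.5 bp, the Klf6 midpoints, at -137.0 and -145.5 bp, and the other Klf3 midpoint lay inside it.

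Away from the starts there were 12 shared regions, 1 inside Klf10 and 11 outside the genes at 5.54 to 45.8 kb from the nearer end. Of the 9 that belong to genes with a known strand, 4 lay upstream and 5 downstream. Klf2, Klf5 and Klf7 had none. Of the 12, 2 lay closer to another protein-coding gene, Smc5 or Odf1, than to the KLF gene. For the other 10 the KLF gene had the nearest protein-coding gene end. Most of these 10 lay nearer to an end of a noncoding gene or pseudogene. Position does not show which gene a region acts on. At the limit of 50 kb, the outermost shared regions inside it were those at 45.8 kb from Klf10 and 44.1 kb from Klf3, and the nearest beyond it were at 52.5 kb from Klf4 and 57.3 kb from Klf6.

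Counted over the whole windows, 7 of the 8 genes had at least 1 shared region, beside 69.9% of all protein-coding genes and 51.5% of those with at most 1 other protein-coding gene in the window. The 8 genes had 19 shared regions in all, with a median of 2.5 per gene, where the median was 2 for all protein-coding genes and 1 for those in gene-poor windows. The order was Klf6, Klf9 and Klf10 at 4, Klf3 at 3, Klf4 at 2, Klf2 and Klf7 at 1 and Klf5 at 0. In all, 4 of the 8 had 3 or more, beside 34.3% of all protein-coding genes and 18.7% of those in gene-poor windows. The upper quartile over all protein-coding genes was 3.

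**Figure D3:**
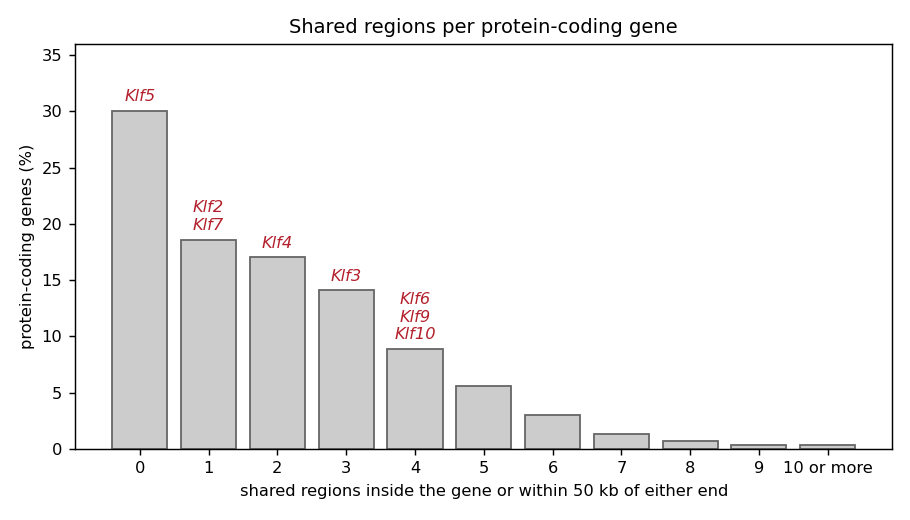
Share of all 21887 protein-coding genes (grey bars, in %) by the number of shared regions inside the gene or within 50 kb of either end, with the 8 genes written above the bar of their own count. Klf6, Klf9 and Klf10 stand at 4 regions, a count found for 8.88% of genes, while 20.2% of genes had 4 or more. Klf5 stands at 0, with 30.1% of genes.

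The replicates gave 32 peaks in replicate 1 and 30 in replicate 2 in the 8 windows (mean 31.0 ± 1.41, SD, n = 2). Of these, 21 in replicate 1 (65.6%, 95% Wilson interval 48.3 to 79.6) and 20 in replicate 2 (66.7%, 48.8 to 80.8) were shared. The shares over all peaks, 68.2% in replicate 1 and 67.2% in replicate 2, lay within these intervals, which cover counting error only. They treat peaks as independent, although many lie in the same window and shared peaks count in both lists, so they are descriptive. Peaks found in a single list numbered 11 in replicate 1 and 10 in replicate 2. They had a median width of 326 bp in replicate 1 and 352 bp in replicate 2, while shared peaks of the set had medians of 551 and 529.5 bp. Over the whole lists these medians were 260.5 and 256 bp for single peaks and 488 and 493 bp for shared ones.

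Widths differed less between the replicates at the starts than elsewhere in the set. The wider of the 2 replicates was 1 to 1.28 times the narrower at the 7 starts, with a median of 1.03, and 1.01 to 2.44 times at the 12 other regions, with a median of 1.30. Over the whole series the median ratio was 1.27 at the 5544 shared regions within 1 kb of a listed coding start and 1.32 at the 12589 others. The farthest apart were the Klf6 region 22.2 kb downstream, at 187 and 456 bp, and the Klf10 region at 31.5 kb, at 751 and 387 bp. In the set the median summed width was 493 bp in replicate 1 and 500 bp in replicate 2 at the starts, and 621 and 606.5 bp elsewhere. Over the whole series the order was the other way round, with 548 bp in replicate 1 and 553 bp in replicate 2 within 1 kb of a listed coding start and 472 and 473 bp elsewhere. Across the 19 regions the summed widths of both replicates had a Spearman correlation of 0.73, and across all 18133 shared regions 0.58. These are descriptions over regions, which share the same pair of libraries, and no difference between starts and other places was tested.

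**Figure D4:**
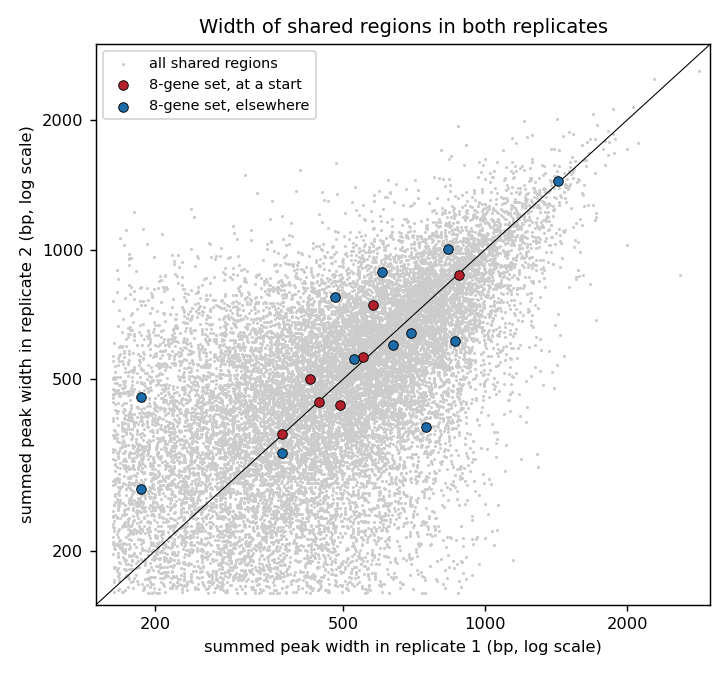
Summed peak width of each shared region in replicate 1 (x axis) and replicate 2 (y axis), both in bp on log scales, for the 7 regions at starts (red), the 12 other regions of the set (blue) and all 18133 shared regions (grey), with the line of equal width. The red points keep close to the line, with ratios up to 1.28, and the blue ones scatter up to 2.44.

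The rest of the family was examined from a list of 18 further genes, 9 KLF and 9 SP genes. A shared region lay in the window of 12 of them and at the start of 7, beside 69.9% and 33.9% of all protein-coding genes. The KLF genes had shared regions in 4 of 9 windows, with starts marked at Klf11, a TGF-beta inducible relative of Klf10, at Klf13 and at Klf16, where either end counted because its start is not listed. The SP genes had them in 8 of 9 windows, with starts marked at Sp1, Sp2, Sp3 and Sp4, the broadly expressed or neural members. The windows of Sp1 and Sp7 overlap, as do those of Sp2 and Sp6, so a region there can count for both genes. Klf16 had the most, 6 shared regions, in a window with 7 other protein-coding genes. Among protein-coding genes, Klf16 was the nearest for 1 of the 6. Sp3 had 4, all with Sp3 as the nearest protein-coding gene, in a window without another one. Klf8, Klf12, Klf14, Klf15, Klf17 and Sp5 had none. Klf12, which is the protein-coding neighbour of Klf5, spans 420 kb and had 1 peak in replicate 1 and 0 in replicate 2.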

How the data were processed

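The deposited files are peak lists of 2 CUT&Tag replicates, each listed on its own. Per the submitters' processing notes, fastp 0.19.6, Bowtie2 and deepTools were used on GRCm38 (mm10); how peaks were called is not given in the sources used. The 5 columns have no header and hold a running number, chromosome, start, end and width. The deposited lists used here hold no score or p-value, so width is the only value of a peak. Gene spans, and starts for 17492 of 21887 protein-coding genes, came from RefSeq tables of GRCm38.p6 without exons. Klf5 and Klf10 have no promoter entry.

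Peaks were merged with Python 3.11.15 and pandas 2.3.3, tested on simulated data, and the number of overlapping peaks was checked with bedtools 2.31.1 and came out equal. Distances to other genes run from the midpoint of the merged region. No test was made. The family list and the motifs, like the 8 genes, were chosen with earlier results of these data known. The rule named the 8 genes, neighbours nearest to a region and up to 6 family genes with a region at the start or the most regions; a further such gene, those without a region, noncoding neighbours and Gm38457 were added after their values were seen. The gene-poor background, width ratios and peak positions at starts were added likewise. Alternatives were other overlaps, distances, links and width limits, and each replicate alone.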

Additional observations from a re-analysis of the deposited data

How the results depend on the processing

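The count of 19 shared regions was 16 with a reciprocal overlap of at least 50%, 19 with midpoints in the window, 17 with the nearest protein-coding gene end and 28 with 100 kb on each side. It fell to 12 when narrow peaks, up to the median width of each list, were left out and to 9 with 10 kb on each side, by construction of fewer peaks and shorter windows. Without replicate 1 or replicate 2, where sharing cannot be asked for, the peaks numbered 30 to 32. The 7 genes with a region at the start were 5 to 8 over the alternatives. They were 5 when the region had to cover the start, 6 with the reciprocal overlap and 5 with only wide peaks. The start lost with the reciprocal overlap was that of Klf3, which has a listed start. The peaks of replicate 1 alone marked 8, Klf5 included, and those of replicate 2 alone 7. The median width of shared peaks was 551 bp in replicate 1 and 529.5 bp in replicate 2. Other family genes with a region were 10 to 15. No paired analysis was possible because there is 1 group and no contrast. Without heights or read numbers, weak and absent binding cannot be told apart. Without a control library, it was not tested which peaks depend on RUNX2.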

Other observations

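The stretches between the neighbouring protein-coding genes, a view chosen after the data were seen, differed widely among the KLF genes. Between Pibf1 and Klf12, 611 kb that hold Klf5, there were 0 shared regions. Between Rad23b and Actl7b, 1348 kb that hold Klf4, there were 28, or 2.08 per 100 kb, of which 26 lay beyond 50 kb from the gene. The Klf6 stretch, from Akr1e1 to Pitrm1 over 1939 kb, held 20 (1.03 per 100 kb), with 16 beyond 50 kb. The Klf7 stretch of 764 kb held 14 (1.83 per 100 kb), with 13 beyond 50 kb, and the Klf3 stretch of 573 kb held 10 (1.74 per 100 kb), with 7 beyond. The shorter stretches around Klf10 (261 kb), Klf9 (211 kb) and Klf2 (84 kb) held 8, 5 and 1, or 3.07, 2.37 and 1.20 per 100 kb. Over all chromosomes, from the first to the last protein-coding gene, there were 0.673 shared regions per 100 kb. Neighbours that overlap the gene itself were passed over. These densities include the regions at the gene starts and were not tested.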
